A study of Mus musculus with 30 samples.

Results

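C2C12 cells are mouse myoblasts that fuse into multinucleate myotubes in low serum, and that take up bone genes in place of muscle genes when they are given bone morphogenetic protein 2 (BMP2). The C2C12-pMirn378 line carries a lentiviral vector with the precursor of the microRNA miR-378, and the response of this line to 6 days of BMP2 was examined here. Several sets of values bear on it: the response itself at d6, how far it differs from the response of the C2C12-pMirn0 line, which carries the parent vector, and how far it differs from the response at d3. The treated group was C2C12-pMirn378 at d6 with 300 ng/ml BMP2 (3 arrays), and it was set against C2C12-pMirn378 at d6 without BMP2 (3 arrays), both in DMEM with newborn calf serum, so that both groups carried the miR-378 vector and are labelled as differing in BMP2 alone. These 6 arrays are part of 30 in all, 3 in each of 10 groups, which also hold both lines at d0, C2C12-pMirn378 at d3 with and without BMP2, and C2C12-pMirn0 at d3 and d6 with and without BMP2. Each line is 1 pool of transduced cells sorted on the green fluorescent protein of the vector, and the 3 arrays of a group come from triplicate experiments with that pool, so p-values measure the spread between repeats of 1 line. Every probe set with a single gene symbol was compared, which gave 34958 of 45101 probe sets and 18194 genes.

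BMP2 binds serine/threonine kinase receptors that phosphorylate *Smad1* and *Smad5*, and these enter the nucleus with *Smad4* and raise a first set of targets, among them the *Id* genes and the inhibitory *Smad6* and *Smad7*. Id proteins capture the partners of the myogenic regulators and keep these from binding the E-boxes of muscle genes. Osteoblasts, the cells that lay down bone, are marked by the transcription factors *Runx2*, *Dlx5* and *Sp7*, by alkaline phosphatase and by a matrix rich in type I collagen, whereas myotubes are marked by myogenin, the sarcomere proteins and the calcium release machinery. The arrays measure mRNA of whole cultures, so fewer cells of a type and less RNA per cell cannot be told apart. *Ppargc1b*, the gene whose intron holds the miR-378 precursor in the genome, was measured at 165, 180.4 and 168 on the BMP2 arrays, against 573, 577 and 550.1 on the untreated arrays. It thus fell 3.31-fold with BMP2 in this line, where a fold is always taken from the log2 ratio of the fit, and the mature microRNA itself was not analysed here. An average expression value (AEV) below is the mean intensity of the 3 arrays of a group.

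BMP2 changed a large part of the transcriptome of C2C12-pMirn378 cells by d6. A probe set is called here where its adjusted p is under 0.005 and its log2 ratio passes 0.6 in either direction, and 3423 probe sets were higher and 3501 were lower with BMP2 than without it (limma with Benjamini-Hochberg adjustment). When each gene is read from 1 representative probe set, 1946 of 18194 genes (10.7%) were higher and 2002 (11.0%) were lower, with a median log2 ratio of -0.03 over all genes. The probe sets called lower moved further than those called higher. Their median log2 ratio was -1.32, against 1.04 for those called higher, and 294 of them fell more than 16-fold, whereas 124 rose more than 16-fold. On 3418 of the probe sets called higher and on 3497 of those called lower the 3 BMP2 arrays did not overlap the 3 untreated arrays. The calls were made from these same arrays, so this separation largely follows from the call and is no further support for it. Its share over all probe sets is not given here. The values carry no detection calls, and those under 50 are named dim here. Probe sets whose mean was below the median of all values, 76.5, had a median SD between replicates of 0.71 on the log2 scale, against 0.13 for the others. In 773 of the probe sets called lower the BMP2 mean was dim, and in 329 of those called higher the untreated mean was dim, so that the size of these ratios rests on low values. With all values under 50 set to 50, 3240 of the probe sets called lower and 3331 of those called higher were still called. The fit behind these calls does not use replicate numbers. In a further fit they were taken to pair the 6 arrays, and with the number as a block for these 6 arrays in the fit of all 30, 3403 were higher and 3504 were lower. In a fit of the 6 arrays alone, which estimates the spread from few degrees of freedom, 1750 were higher and 1923 lower without the block and 0 of either with it, where 16048 of 45101 probe sets still had an unadjusted p under 0.05 (17973 in the fit of all arrays).

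**Figure D1:**
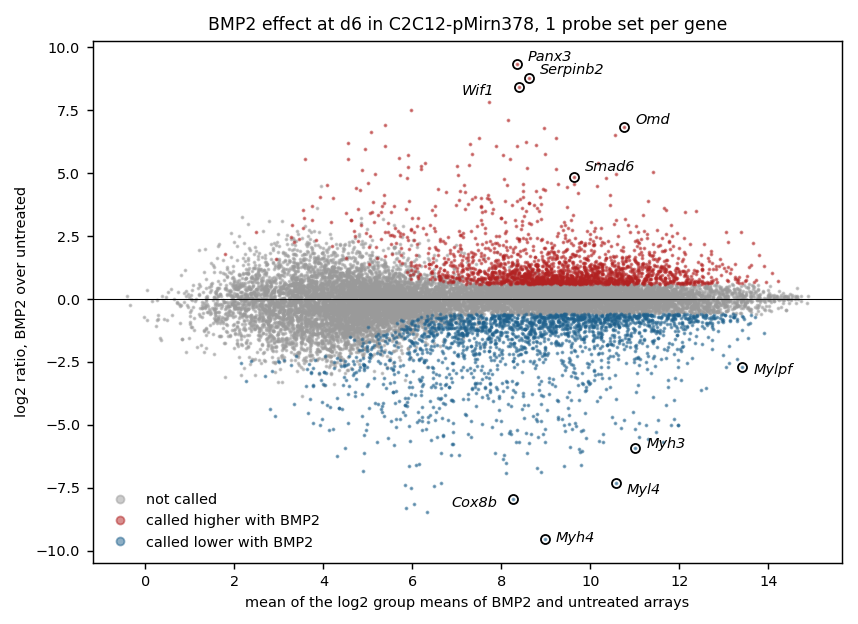
Log2 ratio of BMP2 over untreated C2C12-pMirn378 cells at d6 (vertical axis) against the mean of the log2 group means (horizontal axis), with 1 point for each of 18194 genes read from its representative probe set. Genes called higher (1946) are red, genes called lower (2002) are blue and the others are grey; named genes are ringed, from *Panx3* at the top to *Myh4* at the bottom, and the scatter of uncalled genes widens towards low values.

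The direct targets of BMP signaling rose together. Of 12 genes on a list of such targets, 11 were higher with BMP2 and 0 were lower, with a median log2 ratio of 2.30. The Id genes code for inhibitors of E-box binding. *Id1* was at 5181, 5223 and 5337 on the BMP2 arrays, against 1454, 1456 and 1372 on the untreated arrays. *Id3* was at 8558, 7623 and 8039 on the BMP2 arrays, against 1433, 1261 and 1380.0 on the untreated arrays. In both genes the lowest BMP2 array was far above the highest untreated array, and the level was 3.68-fold higher for *Id1* (log2 ratio 1.88, SE 0.07, adjusted p = 6.78e-16) and 5.95-fold higher for *Id3* (log2 ratio 2.57, SE 0.07, adjusted p = 9.95e-18). *Id2* rose 3.39-fold and *Id4* rose 4.07-fold. The inhibitory Smads, which damp the same pathway, rose as well. *Smad6* was at 4572, 3994 and 4289 on the BMP2 arrays, against 131, 164 and 147 on the untreated arrays. That is a 29.1-fold difference with no overlap (log2 ratio 4.86, SE 0.14, adjusted p = 1.47e-17), whereas *Smad7*, with an AEV of 1196 ± 92.3 with BMP2 and 317 ± 33.5 without it (SD, n = 3 each), rose 3.78-fold. *Bambi*, a receptor decoy without kinase activity, rose to 634 ± 101 with BMP2, against 41.3 ± 13.4 without it. *Hey1*, a transcriptional repressor of the Notch pathway that BMP also raises, was at 2682, 2414 and 2418 on the BMP2 arrays, against 260.2, 224 and 254 on the untreated arrays, a 10.2-fold difference. *Atoh8* rose to 298 with BMP2, against 11.5 without it, and *Msx2* rose to 261 with BMP2, against 99.1 without it. The antagonist *Nog* was low in both groups, at 119.7, 76.6 and 70.7 with BMP2 and 19.9, 3.83 and 34.7 without it, and its log2 ratio of 2.65 is 0.79 with values under 50 set to 50. *Msx1*, at 276 ± 15.3 with BMP2 and 239.7 ± 54.7 without it, was the 1 member that was not called.

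The genes that carry and limit the BMP signal showed no common direction. Of 26 ligands, receptors, Smads and antagonists, 3 were higher and 7 were lower with BMP2, with a median log2 ratio of 0.03. Among the receptors *Acvr1*, which codes for the type I receptor ALK2, was at 4352, 4327 and 4696 on the BMP2 arrays, against 1970.1, 1929 and 2272 on the untreated arrays, so that it rose 2.17-fold with no overlap. *Acvr2a*, a type II receptor, fell to 605 ± 63.6 with BMP2, against 1897 ± 33.1 without it (SD, n = 3 each). *Bmpr2* (0.32 on the log2 scale), *Smad1* (0.39) and *Smad4* (0.34) were not called. The ligand *Bmp5* was called higher, with a log2 ratio of 2.79, or 1.69 with values under 50 set to 50. Other ligands were far lower in treated cells. *Bmp4* was at 573, 539 and 576 on the BMP2 arrays, against 2235, 2217 and 1731 on the untreated arrays, and *Gdf5*, a growth factor of joints and tendons, was at 26.3, 8.56 and 7.98 on the BMP2 arrays, against 435, 435 and 439 on the untreated arrays. For *Gdf5* all 3 BMP2 arrays were dim and the untreated arrays were almost level, and its log2 ratio was -5.16 or -3.12 with values under 50 set to 50. Of the secreted antagonists, *Grem1* fell 2.95-fold and *Bmper* fell 10.3-fold, whereas the follistatin-like *Fstl3* rose 3.2-fold.

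Many bone genes rose. Of 9 osteoblast transcription factors 5 were higher and 0 were lower, with a median log2 ratio of 1.33 (3 higher and a median of 0.45 when each gene was read from its next probe set), and of 22 genes of bone matrix, mineralization and hormone receptors 12 were higher and 2 were lower, with a median of 0.79. *Sp7*, or osterix, which osteoblasts need to form, was at 1429, 1261 and 1649.8 on the BMP2 arrays, against 92.1, 85.9 and 85.5 on the untreated arrays. The untreated arrays were within a narrow range near the dim limit and the BMP2 arrays were 16.4-fold above them (log2 ratio 4.03, SE 0.20, adjusted p = 2.06e-13). *Dlx5*, a homeobox factor upstream of *Sp7*, was at 140.3, 125 and 181 on the BMP2 arrays, against 21.4, 2.95 and 1.63 on the untreated arrays, so that its untreated level was dim on all 3 arrays and the log2 ratio of 4.97 is 1.55 with values under 50 set to 50. *Dlx3*, *Fosl2* and *Twist2* rose 4.11-fold, 2.66-fold and 2.51-fold, and *Cbfb*, the partner of *Runx2*, was not called, with AEVs of 6297 with BMP2 and 6454 without it. *Runx2* itself, *Bglap* and *Spp1* were not analysed here. *Alpl*, the phosphatase that frees phosphate for mineral, was at 6079, 4579 and 5847 on the BMP2 arrays, against 65.8, 65.5 and 64 on the untreated arrays. *Omd*, or osteomodulin, a proteoglycan of mineralized matrix, was at 18998, 17058 and 19229 on the BMP2 arrays, against 163, 158 and 169 on the untreated arrays. Both were low on every untreated array and high on every BMP2 array, and the level rose 83.9-fold for *Alpl* (log2 ratio 6.39, SE 0.21, adjusted p = 9.86e-17) and 113-fold for *Omd* (log2 ratio 6.82, SE 0.15, adjusted p = 1.93e-19). Receptors through which hormones and growth factors act on bone rose too. *Pth1r*, the receptor of parathyroid hormone, rose to 558 ± 78.6 with BMP2, against 41.8 ± 14.5 without it, and the vitamin D receptor *Vdr* rose to 1987 ± 97.9 with BMP2, against 293 ± 17 without it (SD, n = 3 each). *Pdgfra*, a platelet-derived growth factor receptor, rose 7.77-fold and *Fgfr3*, a fibroblast growth factor receptor, rose 2.47-fold. *Tnfrsf11b*, or osteoprotegerin, the decoy that restrains osteoclasts, rose 6.21-fold and *Kazald1* rose 20.7-fold. *Serpinf1*, a secreted protein whose loss causes brittle bone in humans, rose to 25685 ± 1148 with BMP2, against 7755 ± 643 without it. The type I collagen genes, bright under both conditions, moved less. *Col1a1* rose 3.11-fold and *Col1a2* rose 1.66-fold. Among the members that fell, *Mgp*, whose matrix Gla protein inhibits calcification, was at 992, 891 and 957 on the BMP2 arrays, against 17489.8, 14033 and 13850.3 on the untreated arrays, a 15.9-fold fall with no overlap. *Phex* was the other member called lower, with log2 ratios from -1.15 to -0.88 over the alternative fits. The genes of osteocytes and of late mineral, *Ibsp*, *Dmp1*, *Mepe* and *Sost*, had AEVs from 10.8 to 41.2 with BMP2 and from 4.36 to 51 without it and were not called.

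**Figure D2:**
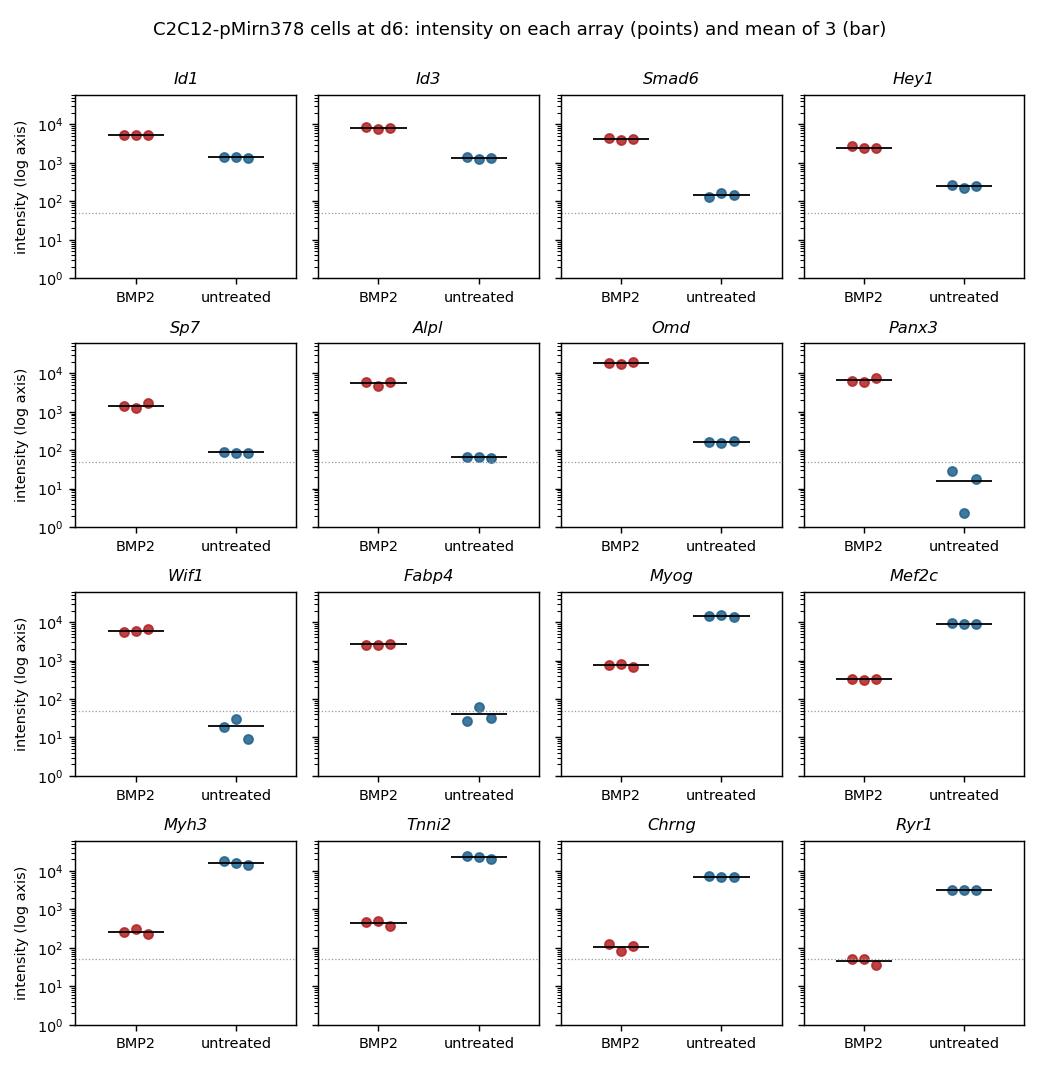
Intensity on a log axis of 16 genes on each of the 3 BMP2 arrays (red, left) and 3 untreated arrays (blue, right) of C2C12-pMirn378 cells at d6, with the mean of the 3 as a black bar and a dotted line at an intensity of 50, under which values are named dim. The BMP2 points lie above the untreated points for BMP targets, bone genes, *Wif1* and *Fabp4*, and below them for the muscle genes *Myog*, *Mef2c*, *Myh3*, *Tnni2*, *Chrng* and *Ryr1*.

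Genes of fibrous matrix rose in large part. Of 30 collagens, proteoglycans and matrix proteins of connective tissue, 18 were higher and 3 were lower with BMP2, with a median log2 ratio of 1.07. The largest ratios of the list were those of *Lum*, *Prelp*, *Fmod* and *Aspn*, which belong to the small leucine-rich proteoglycans of collagen fibrils, whereas *Ogn* and *Bgn* of the same family had smaller ratios. *Lum*, or lumican, was at 3725, 3204 and 3900.5 on the BMP2 arrays, against 112, 84.3 and 104 on the untreated arrays. *Fmod*, or fibromodulin, was at 5837, 4969.8 and 5312 on the BMP2 arrays, against 221, 236 and 251 on the untreated arrays, and *Dcn*, or decorin, was at 29752, 26822 and 26786 on the BMP2 arrays, against 6347, 5935 and 5558 on the untreated arrays. Lumican and fibromodulin were low without BMP2 and rose 36.1-fold and 22.7-fold, whereas decorin was already bright and rose 4.67-fold. *Aspn* and *Prelp* rose 14.7-fold and 33.4-fold. *Tnc*, *Postn*, *Thbs2* and the type VI collagen chains *Col6a1*, *Col6a2* and *Col6a3* also rose, by 2.15-fold for *Col6a2* to 4.36-fold for *Thbs2*, and *Ogn*, or osteoglycin, rose 2.04-fold from an already bright level. Those that fell include both chains of basement membrane collagen. *Col4a1* was at 1069, 916 and 901 on the BMP2 arrays, against 5176, 4528 and 4618 on the untreated arrays, a 4.97-fold fall without overlap, and *Col4a2* fell 4.78-fold. *Col3a1*, *Fn1* and *Bgn* were bright under both conditions and were not called, with log2 ratios of 0.16, 0.11 and -0.04.

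Markers of other mesenchymal fates were looked at in the same arrays. Of 14 cartilage genes 2 were higher and 1 was lower, with a median log2 ratio of -0.17. Over all genes 10.7% were higher and 11.0% were lower, so these counts do not set the cartilage list apart. Moreover, 6 of the 14 were under 50 on all 6 arrays. *Col2a1*, the main collagen of cartilage, was at 439.9, 392 and 477 on the BMP2 arrays, against 13.9, 13.2 and 10 on the untreated arrays, and *Col11a1* rose 5.74-fold, whereas *Acan*, *Ihh* and *Col10a1* were at 30.7, 55.8 and 5.91 with BMP2 and at 32.2, 64.8 and 10.4 without it. *Sox9*, the regulator of cartilage, was not called, with a ratio under the limit of 0.6 (log2 ratio 0.51, SE 0.11, adjusted p = 0.00106). Of 10 fat genes 6 were higher and 1 was lower, with a median of 1.22. *Fabp4*, the fatty acid binding protein of adipocytes, was at 2595, 2569 and 2706 on the BMP2 arrays, against 27.6, 62.7 and 33 on the untreated arrays, and *Pparg*, the regulator of adipocyte formation, rose to 262 ± 50.9 with BMP2, against 89.4 ± 7.4 without it (SD, n = 3 each). *Cebpb* and *Fabp5* rose 2.86-fold and 3.78-fold. The hormones of mature adipocytes stayed dim, with *Adipoq* at 11.5 and *Lep* at 4.07 with BMP2 and at 9.13 and 3.67 without it. *Cd36*, a fatty acid transporter of muscle as well as of fat, was the member that fell, at 106, 70.6 and 75.2 on the BMP2 arrays, against 2392, 2313 and 2353 on the untreated arrays. *Scx*, the transcription factor of tendon, fell 7.16-fold, and *Tnmd*, *Mkx* and *Thbs4* were dim in both groups. Among 10 smooth muscle genes 3 were higher and 2 were lower, led by *Cnn1*, which was at 396, 356 and 411 on the BMP2 arrays, against 46.1, 12.9 and 10.8 on the untreated arrays, while *Acta2* was not called, at 23304 with BMP2 and 23526 without it.

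The genes with the largest rises were named by a ranking of the log2 ratios after values under 50 were set to 50, among probe sets whose groups did not overlap. The first was *Serpinb2*, an inhibitor of plasminogen activators, at 6785, 7954 and 7128 on the BMP2 arrays, against 5.34, 31.2 and 26.6 on the untreated arrays. Its AEV in this line was 1194 ± 81.9 at d0, before treatment (SD, n = 3), and 31.9 at d3 without BMP2. The ratio at d6 thus holds a fall from d0 without BMP2 as well as a rise with it. *Panx3*, a channel protein of osteoblasts and growth plate chondrocytes, was at 6456, 5901 and 7709 on the BMP2 arrays, against 28, 2.29 and 17.7 on the untreated arrays. *Wif1*, a secreted protein that binds and blocks Wnt ligands, was at 5483, 5755 and 6454 on the BMP2 arrays, against 18.8, 30.5 and 9.17 on the untreated arrays. For all of these the untreated arrays were dim and scattered while the BMP2 arrays were bright and close together, and their log2 ratios of 8.79, 9.32 and 8.40 are 7.18, 7.05 and 6.88 with values under 50 set to 50. *Prg4*, or lubricin, the lubricant of joint surfaces, was measured well above 50 in both groups. It was at 15064, 14459 and 13337 on the BMP2 arrays, against 177, 161 and 129 on the untreated arrays, a 92.4-fold rise (log2 ratio 6.53, SE 0.14, adjusted p = 8.83e-20). *Tnn*, a tenascin of bone and periosteum, rose to 3028 ± 49.1 with BMP2, against 14.8 ± 7.14 without it (SD, n = 3 each). *Lgr6*, a receptor of R-spondins, rose to 3619 ± 444 with BMP2, against 70 ± 24.6 without it. The ranking also gave *Omd* and *Alpl*, described above, a second probe set of *Prelp* at 5562 with BMP2 and 41.3 without it, the phospholipase *Plb1* at 4971 with BMP2 and 49.4 without it, the ferritin receptor *Scara5* at 3262 with BMP2 and 24.7 without it, and the secreted carbonic anhydrase *Car6* at 3625 with BMP2 and 53.3 without it. *Prelp*, *Plb1* and *Scara5* were dim in the untreated mean.

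The lists of sarcomere, muscle membrane and muscle energy genes had the lowest medians of all 27 lists. The myogenic regulators were lower in part, with 9 of 16 lower, 1 higher and a median log2 ratio of -0.98. Not all of these switch muscle genes on, since the 9 include musculin, *Msc*, a repressor of muscle differentiation. *Myog*, or myogenin, which drives the terminal step of muscle differentiation, was at 761, 834 and 697 on the BMP2 arrays, against 14426, 15169 and 13273 on the untreated arrays. *Mef2c*, its partner at muscle promoters, was at 342, 304 and 334 on the BMP2 arrays, against 9672, 8716 and 9191 on the untreated arrays. The treated arrays of both genes lay far under the untreated ones without overlap, 18.7-fold lower for *Myog* (log2 ratio -4.23, SE 0.08, adjusted p = 4.01e-21) and 28.2-fold lower for *Mef2c* (log2 ratio -4.82, SE 0.11, adjusted p = 2.97e-19). *Rbm24*, a splicing regulator of muscle, and *Smyd1*, a methyltransferase needed to build myofibrils, fell 33-fold and 36.4-fold. *Myod1*, which commits cells to muscle, moved less. It was at 1042, 1135 and 1005 on the BMP2 arrays, against 2027, 2029.5 and 2021 on the untreated arrays, a 1.91-fold fall. *Myf5*, the other early determination factor, was at 3174, 3513 and 3179 on the BMP2 arrays, against 2016, 2511 and 2229.7 on the untreated arrays, higher on every BMP2 array but not called, since its ratio is under the limit of 0.6 (log2 ratio 0.55, SE 0.08, adjusted p = 4.82e-06). *Pax7*, *Pax3* and *Srf* were not called, and *Eya1*, a transcriptional coactivator that works with homeobox factors, rose 2.98-fold, at 1698, 1478 and 1842 on the BMP2 arrays, against 517, 534 and 634 on the untreated arrays.

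The sarcomere, the contractile unit of muscle, was lower almost throughout. Of 37 measured genes 34 were lower with BMP2 and 0 were higher, with a median log2 ratio of -4.75, and the summed intensity of the 37 was 35916 to 39347 on the BMP2 arrays and 365480 to 440610 on the untreated arrays. *Myh3*, the embryonic myosin heavy chain, was at 259.7, 308 and 226 on the BMP2 arrays, against 18188, 15653 and 14290.4 on the untreated arrays. *Tnni2*, a fast troponin, was at 479.7, 485 and 367 on the BMP2 arrays, against 24273, 22542 and 21011 on the untreated arrays, and *Ttn*, for the giant spring protein titin, was at 533, 572 and 555 on the BMP2 arrays, against 15823, 15700.1 and 15075 on the untreated arrays. The untreated arrays were bright and the BMP2 arrays were 60.8-fold, 51.3-fold and 28.1-fold lower. *Neb* fell 40.6-fold and *Actc1* fell 32.5-fold. The adult fast myosin *Myh4* led the ranking of falls, at 26.4, 3.35 and 38.5 on the BMP2 arrays, against 11774, 10915 and 10603 on the untreated arrays, and its log2 ratio of -9.52 is -7.79 with values under 50 set to 50. Fetal *Myl4* fell 159-fold and the actin nucleator *Lmod3* fell 66.5-fold. Some sarcomere genes kept a high level in treated cells. *Myl1*, an alkali light chain, was at 10771, 9154 and 8996 on the BMP2 arrays, against 27603, 23648 and 21968 on the untreated arrays, which is only 2.53-fold lower, and *Mylpf*, *Acta1*, *Tnnc1* and *Actn3* kept AEVs from 2208 to 4415 with BMP2, against 11234 to 27814 without it. The 3 members that were not called were *Ldb3* (-0.29), the slow light chain *Myl3* (0.34) and the fast myosin *Myh2* (-0.68), and both *Myl3* and *Myh2* were low on all 6 arrays.

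The membrane, synapse, calcium and fusion genes of muscle fell alongside the sarcomere. Of 25 genes 24 were lower and 0 were higher, with a median log2 ratio of -4.32. *Ryr1*, the calcium release channel of the reticulum, was at 51.8, 51.3 and 35.4 on the BMP2 arrays, against 3171, 3220.2 and 3178 on the untreated arrays. *Casq2*, which stores calcium there, was at 369, 374 and 358 on the BMP2 arrays, against 18065, 16695 and 16609 on the untreated arrays. *Ryr1* was thus 70.1-fold and *Casq2* 46.6-fold lower with BMP2, without overlap, and *Atp2a1*, which pumps calcium back, fell 31.9-fold. *Stac3* and *Cacna1s*, which couple excitation to contraction, fell to dim levels, with log2 ratios of -6.19 and -5.48 that are -5.30 and -4.33 with values under 50 set to 50. The acetylcholine receptor of the fetal nerve-muscle synapse fell in all its subunits, but unequally. The gamma subunit *Chrng* was at 128, 82.2 and 112 on the BMP2 arrays, against 7471, 6970.0 and 6968 on the untreated arrays on its representative probe set, and a second probe set gave 22.6, 20.3 and 22.4 with BMP2 and 4547, 4949 and 4601 without it. The alpha subunit *Chrna1* was at 8888, 8179 and 8342 on the BMP2 arrays, against 18835, 16408 and 15464 on the untreated arrays, a fall of 1.99-fold without overlap, while *Chrnb1* fell 31.6-fold. The delta subunit *Chrnd* was at 13.7 ± 12.5 with BMP2, dim, against 736 ± 27.7 without it, and its log2 ratio of -6.13 is -3.88 with values under 50 set to 50. *Mymx*, for the peptide that completes myoblast fusion, was at 89.7, 74.1 and 108 on the BMP2 arrays, against 8735, 8399.7 and 8552 on the untreated arrays, a 95.6-fold fall, and the cell adhesion gene *Cdh15* fell 20-fold. Of 12 genes of muscle energy supply 11 were lower, with a median of -3.64. The creatine kinase gene *Ckm* was at 79.7, 137 and 113 on the BMP2 arrays, against 6331, 7495 and 6415 on the untreated arrays, and *Cox8b*, a muscle form of a cytochrome oxidase subunit, was at 13.3, 33.8 and 14.2 on the BMP2 arrays, against 4850.1, 4544 and 4485 on the untreated arrays. Myoglobin, *Mb*, fell 14.8-fold and the muscle enolase *Eno3*, at 3623 with BMP2 and 21348 without it, fell 5.88-fold. The ranking of the falls also named *Prkag3*, a regulatory subunit of the AMP-activated kinase of muscle, *Itgb1bp2*, or melusin, and *Tceal7*, which was 100-fold lower. The BMP2 means of *Prkag3* (44.2) and *Itgb1bp2* (47.8) were dim, against 5105 and 4177 without BMP2, and their log2 ratios of -6.86 and -6.72 are -6.67 and -6.16 with values under 50 set to 50.

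The sequence ahead of these genes is shown for an early BMP target, for a bone gene and for a pair of muscle genes, since Id proteins act through E-boxes and Smads through GC-rich elements. Windows of 300 bases, from 250 before to 50 after the annotated start of the gene, were taken from RefSeq (GRCm38.p6) and were found for 14453 of 18194 genes. They run 5′ to 3′ on the strand of the gene, and capitals mark CAGCTG (an E-box bound by myogenic factors), GGCGCC and CAGACAG (elements bound by Smads) and TATAAA, searched on both strands, so that TTTATA in the window of *Myh4* is TATAAA read on the other strand.
Id2 (chr12:25096043-25096342): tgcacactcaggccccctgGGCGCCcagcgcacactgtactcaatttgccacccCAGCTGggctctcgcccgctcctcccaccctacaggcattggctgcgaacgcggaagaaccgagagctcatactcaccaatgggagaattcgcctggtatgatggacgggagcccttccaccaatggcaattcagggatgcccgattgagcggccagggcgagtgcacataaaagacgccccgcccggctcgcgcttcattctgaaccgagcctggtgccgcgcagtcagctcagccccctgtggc
Alpl (chr4:137796335-137796634): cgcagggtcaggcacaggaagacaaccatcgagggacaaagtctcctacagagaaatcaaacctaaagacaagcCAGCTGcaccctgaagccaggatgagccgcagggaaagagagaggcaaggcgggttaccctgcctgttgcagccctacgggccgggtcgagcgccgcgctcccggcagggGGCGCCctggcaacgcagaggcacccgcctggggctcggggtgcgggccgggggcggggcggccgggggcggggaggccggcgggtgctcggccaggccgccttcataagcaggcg
Myh4 (chr11:67237562-67237861): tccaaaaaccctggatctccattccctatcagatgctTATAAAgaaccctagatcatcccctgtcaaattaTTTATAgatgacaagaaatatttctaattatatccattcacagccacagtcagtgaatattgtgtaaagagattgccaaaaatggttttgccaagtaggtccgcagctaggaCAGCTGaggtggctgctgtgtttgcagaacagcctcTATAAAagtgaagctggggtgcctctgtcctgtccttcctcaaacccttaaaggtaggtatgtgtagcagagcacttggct
Chrng (chr1:87205561-87205860): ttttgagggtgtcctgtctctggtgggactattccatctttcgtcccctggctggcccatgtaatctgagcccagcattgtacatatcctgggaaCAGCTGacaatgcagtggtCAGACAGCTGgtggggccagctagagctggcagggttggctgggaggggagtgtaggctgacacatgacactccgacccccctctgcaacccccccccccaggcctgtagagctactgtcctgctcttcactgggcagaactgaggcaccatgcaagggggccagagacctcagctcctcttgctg
Of the 37 sarcomere genes 28 have a window, and of these 11 (39.3%) hold CAGCTG and 10 (35.7%) hold TATAAA, and among the 17 of 25 muscle membrane genes with a window 9 (52.9%) hold CAGCTG and 1 (5.88%) holds TATAAA. Of the 11 of 16 myogenic regulators with a window 0 hold CAGCTG and 4 (36.4%) hold TATAAA. The shares over all genes were 16.1% for CAGCTG and 9.87% for TATAAA. The element GGCGCC was in 0 of the 28 sarcomere windows in 1 of 17 muscle membrane windows and in 1 of 11 of myogenic regulators, against 18.1% of all. Of the 7 of 12 BMP targets with a window 2 (28.6%) hold GGCGCC, 2 (28.6%) hold CAGCTG and 0 hold TATAAA or CAGACAG. By direction of the call, CAGCTG was in 14.1% of the windows of genes called higher and 19.6% of those of genes called lower. GGCGCC was in 23.5% of windows of genes called higher and 18.6% of those called lower, and the related E-box CACCTG was in 14.4% of those called higher, 21.8% of those called lower and 19.7% of all. CAGACAG was in 6.29% of windows of genes called higher and 6.52% of those called lower (6.61% of all), and TATAAA was in 8.24% of those called higher and 8.76% of those called lower. In the window of *Chrng* CAGACAG and the downstream CAGCTG overlap. The windows shown are examples that were not drawn at random. Each of them holds CAGCTG, against 16.1% of all windows, so they do not stand for their lists. These shares were not tested, and a match of letters is not a bound site. The minus-strand genes shown are *Id2* and *Alpl*, and *Alpl* has a further annotated start that is not shown.

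Many cell cycle genes were lower in BMP2-treated cells at d6. Of 33 genes 19 were lower and 2 were higher, with a median log2 ratio of -0.87. *Mki67*, whose product marks cycling cells, was at 189.7, 186 and 168 on the BMP2 arrays, against 817, 681 and 822 on the untreated arrays. *Ccnb2*, a mitotic cyclin, was at 167, 178 and 174 on the BMP2 arrays, against 542, 433 and 611 on the untreated arrays, and *Birc5*, or survivin, was at 194, 212 and 205 on the BMP2 arrays, against 613, 530.2 and 635 on the untreated arrays. In these the treated arrays were all below the untreated ones, by 4.26-fold, 3.03-fold and 2.9-fold. The mitotic kinesin *Kif23* fell to dim values, with a log2 ratio of -3.47 that is -2.24 with values under 50 set to 50. Genes of DNA replication were split, since *Mcm5*, *Tk1* and *Rrm1* were lower while *Pcna*, *Mcm2*, *Mcm4* and *Mcm7*, with log2 ratios from -0.17 to 0.32, were not called. The 2 genes that rose were the licensing factor *Cdt1*, at 1666, 2084 and 1483 on the BMP2 arrays, against 644, 708 and 710.1 on the untreated arrays, and *E2f1*, a transcription factor of S phase, whose call was lost without untreated replicate 2 (adjusted p = 0.0081). Myotubes leave the cycle with high levels of its inhibitors, and some of these were lower in treated cells. *Cdkn1a*, for p21, was at 7266, 6868 and 6884 on the BMP2 arrays, against 19078, 15665 and 15418 on the untreated arrays, and *Cdkn1c*, for p57, was at 21, 3.95 and 16 on the BMP2 arrays, against 467, 379 and 369 on the untreated arrays. Of 10 genes of cell cycle exit 5 were lower, including *Rb1* (3.62-fold) and *Ccnd3* (3.32-fold), and 2 were higher, the cyclins *Ccnd1* (1.64-fold) and *Ccnd2* (1.63-fold).

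Wnt signaling, a second pathway of bone formation, was changed in part. Of 32 genes 9 were higher and 5 were lower, with a median log2 ratio of 0.35 (8 higher and 3 lower when read from the next probe sets). After *Wif1*, the secreted Frizzled-related protein *Sfrp2* was at 7547, 6007 and 7297 on the BMP2 arrays, against 252, 272 and 219 on the untreated arrays, a 28.1-fold rise (log2 ratio 4.81, SE 0.16, adjusted p = 1.2e-16), and *Sfrp4* rose 6.87-fold. Of the ligands *Wnt4* was at 1413, 1365 and 1492 on the BMP2 arrays, against 194, 170.0 and 117 on the untreated arrays, whereas *Wnt10a* was at 189, 213 and 199 on the BMP2 arrays, against 1093, 909 and 1149 on the untreated arrays. They thus moved in opposite directions without overlap, up 9.08-fold and down 5.22-fold. The target gene *Axin2* was at 84.8, 109 and 101 with BMP2 and 73.5, 87.5 and 88.4 without it, and it was not called. In the Notch pathway 3 of 13 genes were higher and 4 were lower (2 and 2 by the next probe sets). *Jag1*, a ligand, was at 2013, 2014 and 1702 on the BMP2 arrays, against 282, 295 and 236 on the untreated arrays, a 7.06-fold rise, and *Lfng*, which modifies Notch receptors, rose 5.4-fold, while the ligand *Dll1* fell 3.33-fold and *Heyl* fell 3.09-fold. Of 10 genes of the insulin-like growth factor axis 2 were higher and 3 were lower. *Igf1* was at 79.7, 90.5 and 142 on the BMP2 arrays, against 1055, 1087 and 930.2 on the untreated arrays, a 10.1-fold fall, *Igfbp2* fell 2.67-fold and *Igfbp4* rose 2.97-fold.

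Of 14 genes of the unfolded protein and amino acid response 8 were higher and 1 was lower, with a median log2 ratio of 0.86. *Ddit3*, for the stress factor CHOP, was at 7353, 8079 and 6276 on the BMP2 arrays, against 1306, 1494 and 1269.8 on the untreated arrays. *Trib3*, a pseudokinase induced by it, was at 4774, 5461 and 4809 on the BMP2 arrays, against 659, 849 and 499 on the untreated arrays. Both were higher on all treated arrays, by 5.32-fold and 7.66-fold, and *Sesn2* and *Ddit4* rose 3.66-fold and 3.4-fold. The chaperone *Hspa5* was not called (-0.05) and the serine synthesis gene *Psat1* fell 1.92-fold. Of 13 genes of cholesterol synthesis 9 were lower and 0 were higher, with a median of -1.09, and 5 were lower when each gene was read from its next probe set. *Cyp51* was at 778, 701 and 830.3 on the BMP2 arrays, against 2823, 2486 and 2937 on the untreated arrays, a 3.57-fold fall, and *Dhcr7* and *Idi1* fell 3.89-fold and 3.56-fold. Among 12 hypoxia genes 3 were higher and 1 was lower, and *Vegfa*, the vascular growth factor, was at 7070.1, 7589.6 and 8205 on the BMP2 arrays, against 1543, 1607 and 1624 on the untreated arrays, a 4.78-fold rise, while *Egln3* fell 10.4-fold. Of 19 mitochondrial genes 7 were lower and 0 were higher, with a median of -0.31 (4 were lower by the next probe sets or after the arrays were scaled to a common median), and the fatty acid oxidation gene *Acadl* fell 4.16-fold. Among 13 genes of acute phase, complement and chemokines 6 were higher and 2 were lower, with a median of 1.30, or 0.45 with values under 50 set to 50. The 2 that were lower are the chemokines *Ccl8* and *Ccl2*. The call of *Ccl2* was lost without any of 5 of the 6 arrays and under the common median. *Il6* was at 708, 755 and 655 on the BMP2 arrays, against 96.8, 108 and 118 on the untreated arrays. Both groups were apart, by 6.58-fold. Haptoglobin, *Hp*, was at 526, 348 and 524 on the BMP2 arrays, against 3.41, 4.24 and 3.68 on the untreated arrays, dim on all untreated arrays.

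Markers of cell types that a myoblast culture should lack were low, apart from a few genes. Of 6 endothelial genes 0 were called (lowest adjusted p = 0.0336, for *Tek*) and 5 were under 50 on all 6 arrays, with summed intensities of 73.2 to 126 with BMP2 and 140 to 204 without it. Of 5 macrophage genes 1 was called, *Cd14*, which rose to 697 with BMP2, against 281 without it, while the pan-leukocyte gene *Ptprc* was at 14 with BMP2 and 11.2 without it, and the list summed to 924 to 1001 with BMP2 and 479 to 573 without it. Of 6 neuronal genes *Stmn2* rose 4-fold while the neurofilament genes *Nefl* and *Nefm* fell, *Nefl* to 3.13, 1.9 and 22.3 with BMP2, against 891, 804 and 939 without it, and *Snap25* and *Nefh* stayed under 50 on all 6 arrays. The neuronal list summed to 7006 to 7876 with BMP2 and 2971 to 3254 without it, most of it from *Stmn2*. Of 6 epithelial genes *Krt14* rose to 1873 ± 77.9 with BMP2, against 36.6 ± 12.1 without it (SD, n = 3 each), and *Krt19* and *Cdh1* fell, while the epithelial list summed to 1973 to 2043 with BMP2 and 506 to 627 without it. The rise of *Krt14* rests on its representative probe set. When each of the 6 epithelial genes was read from its next probe set, 0 were higher and 2 were lower, and the highest log2 ratio was 0.9995. The part of such cells in the other results was not tested. The ratio of the 3′ to the 5′ control probe sets of *Gapdh*, a measure of RNA integrity and of labelling, was 0.729 to 0.782 on the BMP2 arrays and 0.832 to 0.851 on the untreated arrays, and that of actin was 1.17 to 1.22 on the BMP2 arrays and 1.20 to 1.27 on the untreated arrays. The *Gapdh* ratios do not overlap, and their part in the other results was not tested. Within a group the 3 arrays correlated at 0.988 to 0.990 on the log2 scale, and between the groups at 0.861 to 0.866. Of the defining genes of each fate, *Myog* and *Myh3* were bright in untreated cells, and *Sp7* and *Alpl* were bright in treated cells, where *Dlx5*, though higher than in untreated cells, and the late mineral genes were low.

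**Figure D3:**
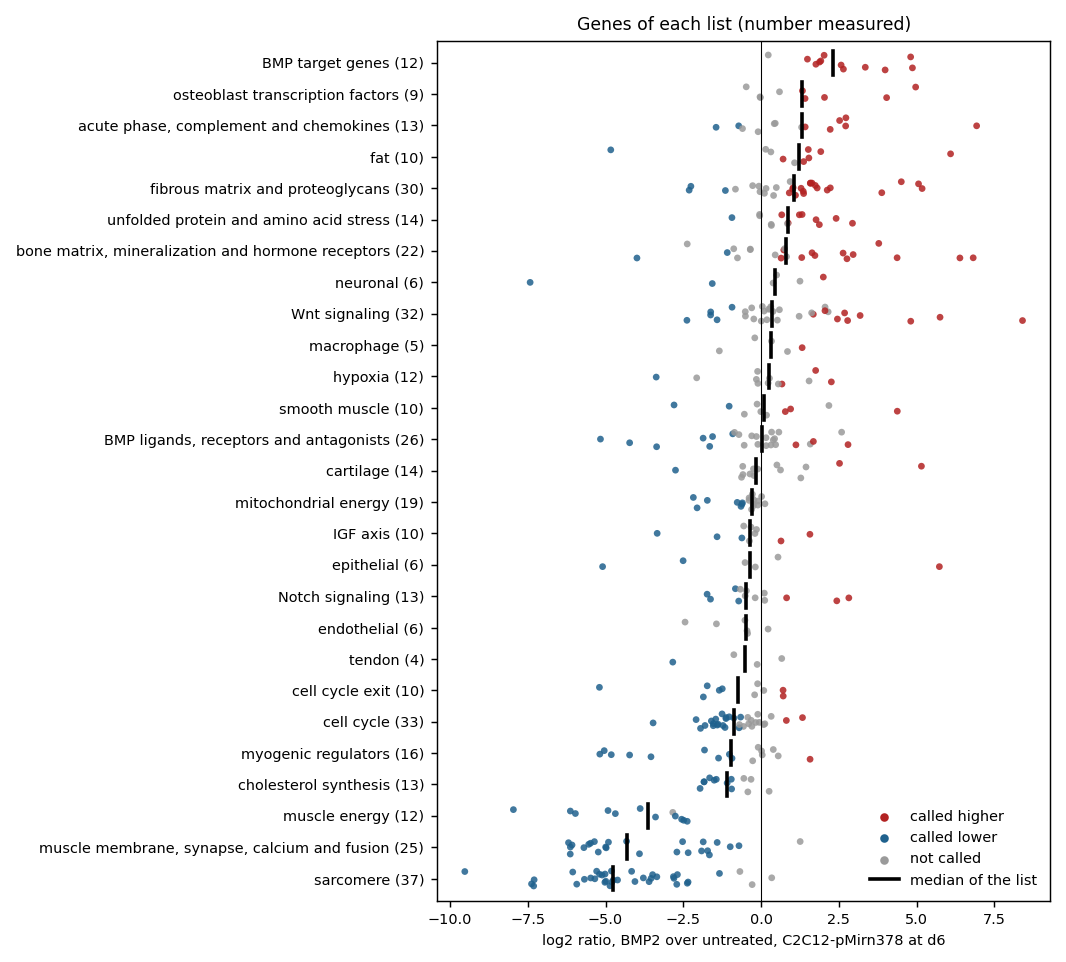
Log2 ratio of BMP2 over untreated C2C12-pMirn378 cells at d6 (horizontal axis) for the members of each of 27 gene lists (rows, ordered by their median, with the number of measured genes in brackets). Red points were called higher, blue points lower and grey points neither, and black bars are medians, which run from 2.30 for BMP target genes down to -4.75 for the sarcomere.

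The response at d6 was then set against that of the same line at d3, by the difference of the BMP2 log2 ratios of both days (d6 minus d3). This comparison shares the d6 arrays with the results above. At d6 the ratio was higher than at d3 for 1057 probe sets and lower for 1517, which is 656 genes (3.61%) and 1027 genes (5.64%), with a median difference of -0.05 over all genes. Genes of cell division were among those with a lower ratio. Of 33 cell cycle genes 28 had a lower ratio at d6 than at d3 and 0 had a higher one, with a median difference of -2.45. *Mki67* had a log2 ratio of -2.09 at d6, against 1.43 at d3 (difference -3.52, SE 0.18, adjusted p = 1.51e-11). Its AEV was 5243 at d0, before treatment. With BMP2 it was 2273 ± 130.5 at d3 and 181 ± 11.5 at d6, and without BMP2 it was 851 ± 166 at d3 and 773 ± 79.9 at d6. So treated cells held more *Mki67* than untreated cells at d3 and less at d6, and *Ccnb2* and *Birc5* were likewise called higher with BMP2 at d3 and lower at d6. The 8 genes ranked lowest by this difference hold further genes of mitosis, *Cdca8* (-3.85), *Cdca5* (-3.80), *Depdc1a* (-3.72) and *Gas2l3* (-3.85). The value of *Cdca8* comes from a probe set other than its representative one.

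Stress genes moved the other way. Of 14 genes of the unfolded protein and amino acid response 10 had a higher BMP2 ratio at d6 than at d3 and 0 had a lower one, with a median difference of 1.46. *Trib3* had a log2 ratio of 2.94 at d6, against -0.62 at d3 (difference 3.56, SE 0.21, adjusted p = 7.98e-11). Its AEV was 213 at d0. With BMP2 it was 894 ± 99.5 at d3 and 5015 ± 387 at d6, and without BMP2 it was 1374 ± 112 at d3 and 669 ± 175 at d6. *Atf3*, another factor of the stress response, was lower with BMP2 at d3 and higher at d6, with a difference of 3.03, and *Cth*, for an enzyme that makes cysteine, had one of 2.70. *Car6* (4.54), *Gsta2* (3.80), *Diras2* (3.45) and *Cdsn* (2.69) were ranked with them. Among the early targets *Id3*, *Id2* and *Smad6* had a lower ratio at d6 than at d3. For *Id3* the ratio was 2.57 at d6, against 4.92 at d3, where its AEV without BMP2 was 1358 ± 88.2 at d6 and 357 ± 29.1 at d3, and with BMP2 it was 8074 ± 469 at d6 and 10791 ± 665 at d3. As a ratio, the days thus differed more in the untreated than in the treated cells. *Postn*, for periostin, had log2 ratios of 1.35 at d6, against 5.05 at d3. With BMP2 it was at 19878 ± 811 at d6 and 19599 ± 746 at d3, and without it at 7771 ± 93 at d6 and 594 ± 66.4 at d3. *Cilp*, a matrix protein of cartilage, likewise had an untreated level of 1575 at d6, against 91.2 at d3, while its treated level was 77.9 at d6 and 86.4 at d3. Of the muscle lists 18 of 37 sarcomere genes had a lower ratio at d6 and 1 a higher one (14 were lower after the arrays were scaled to a common median), and *Myh3* had ratios of -5.93 at d6, against -4.06 at d3. *Mgp* fell further at d6, with ratios of -3.99, against -1.81 at d3. The day difference of *Alpl* was not called (0.38, adjusted p = 0.516), and neither was that of *Sp7* (-0.88, adjusted p = 0.0421).

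**Figure D4:**
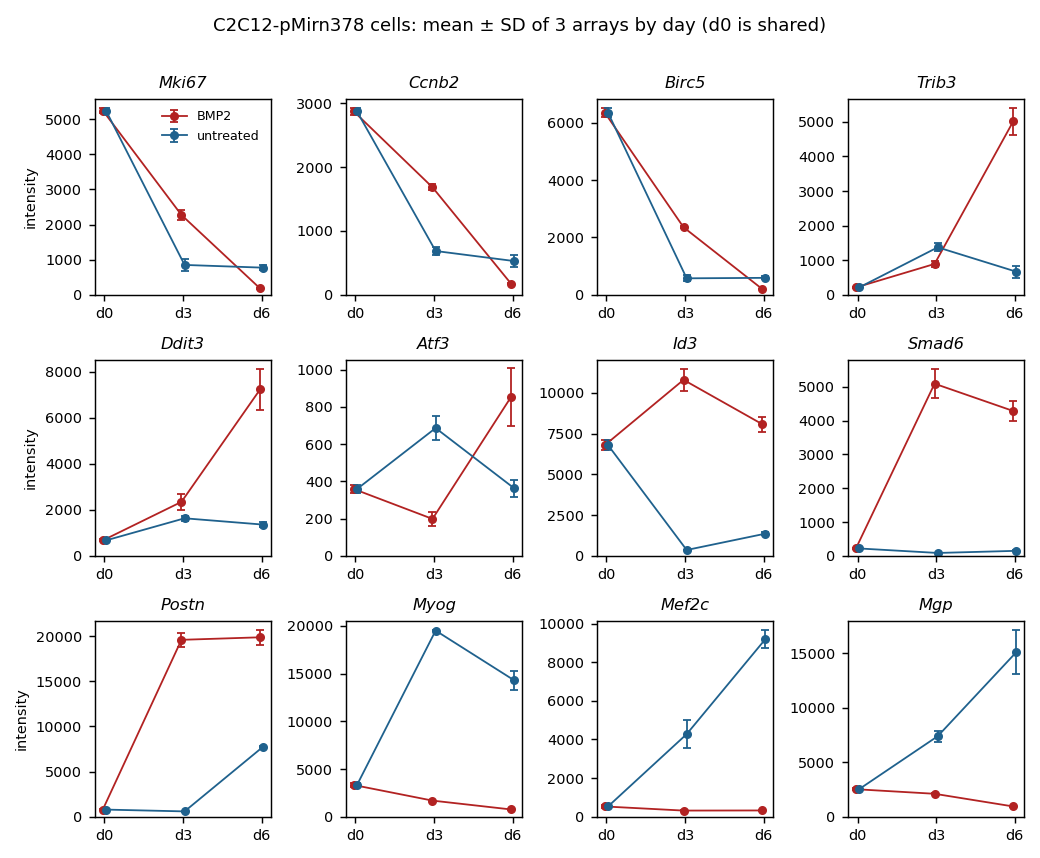
Mean intensity ± SD of 3 arrays (vertical axes, linear, each panel on its own scale) at d0, d3 and d6 in C2C12-pMirn378 cells with BMP2 (red) and without it (blue), for 12 genes; the d0 point is shared by both curves. For *Mki67*, *Ccnb2* and *Birc5* the BMP2 line lies above the untreated line at d3 and below it at d6, and for *Trib3*, *Ddit3* and *Atf3* the BMP2 line lies highest at d6.

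Last, the response was set against that of C2C12-pMirn0 cells at d6, by the difference of the BMP2 log2 ratios of the lines, which again shares the 6 arrays above. The ratio was higher in C2C12-pMirn378 cells for 250 probe sets and lower for 288, which is 187 genes (1.03%) and 181 genes (0.995%), with a median difference of -0.05 over all genes. The division into higher and lower depends on the scaling of the arrays, since 46.47% of the calls were higher as deposited and 73.7% (311 higher and 111 lower) after scaling to a common median, which moved the median difference of all genes to 0.12. The early BMP targets were not among the calls, with 0 of 12 in either direction. With 1.03% of all genes called higher and 0.995% lower, this count does not set the targets apart from other genes. The differences were 0.16 for *Id1* and -0.10 for *Smad6*, and the lowest adjusted p on the list was 0.011, for *Hey1* (difference -0.73). Of 37 sarcomere genes 14 had a lower ratio in C2C12-pMirn378 cells and 1 had a higher one, or 5 and 2 under the common median. *Myh3* had a log2 ratio of -5.93 in C2C12-pMirn378 cells, against -3.94 in C2C12-pMirn0 cells, and the difference of -1.99 was called (SE 0.18, adjusted p = 3.32e-07). At the level of AEVs, *Myh3* was at 265 ± 41.6 with BMP2 and 16044 ± 1978 without it in C2C12-pMirn378 cells, and at 1258 ± 115 with BMP2 and 19287 ± 1387 without it in C2C12-pMirn0 cells. As a ratio, the lines were thus further apart with BMP2 than without it. *Myl4* and *Actc1* showed the same order, with differences of -1.76 and -1.21, which were called under both scalings. Against these, *Chrna1* had a higher ratio in C2C12-pMirn378 cells, at -0.99 in C2C12-pMirn378 cells, against -2.13 in C2C12-pMirn0 cells. Of 16 myogenic regulators 5 had a lower ratio in C2C12-pMirn378 cells (3 under the common median), among them *Rbm24* (-1.00), while that of *Myog* (-0.70) was lost under the common median.

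Of 30 genes of fibrous matrix 4 had a higher ratio in C2C12-pMirn378 cells and 0 a lower one (5 and 0 under the common median, and 3 to 6 higher with 1 array left out). Of 22 bone genes 2 had a higher ratio and 0 a lower one (3 and 0 under the common median, and 1 to 2 higher with 1 array left out). They were *Col1a1* and *Kazald1*, and the call of *Kazald1* was lost without any of 9 of the 12 arrays (highest adjusted p = 0.0156). *Col1a1* had a log2 ratio of 1.64 in C2C12-pMirn378 cells, against 0.40 in C2C12-pMirn0 cells (difference 1.24, SE 0.17, adjusted p = 8.51e-05). *Postn* had ratios of 1.35 in C2C12-pMirn378 cells, against -0.02 in C2C12-pMirn0 cells, where its AEV was 10891 with BMP2 and 11061 without it. The osteoblast factors *Sp7* and *Dlx5* and the phosphatase *Alpl* had differences of 1.37, 2.47 and 1.03 between the lines, which were not called, at adjusted p = 0.00602, 0.204 and 0.0517. This depends on the scaling for the osteoblast transcription factors. Of 9 on that list 0 were called as deposited, and 1 was higher under quantile normalization and under the common median. The antagonist *Grem1* had ratios of -1.56 in C2C12-pMirn378 cells, against 0.19 in C2C12-pMirn0 cells, and the difference of -1.75 was called. *Ctsh*, for the lysosomal protease cathepsin H, was among the 8 genes ranked above. In C2C12-pMirn378 cells it was at 6103, 4956 and 6249 on the BMP2 arrays, against 317, 339.8 and 340.1 on the untreated arrays, and its ratio was 4.11 in C2C12-pMirn378 cells, against 1.67 in C2C12-pMirn0 cells. *Krt31*, a hair keratin, had ratios of opposite sign, 1.26 in C2C12-pMirn378 cells, against -2.43 in C2C12-pMirn0 cells, and both were called. *Npy1r*, a receptor of neuropeptide Y, had a ratio of 0.87 in C2C12-pMirn378 cells, where it was not called and the arrays overlapped (adjusted p = 0.00514), against -1.27 in C2C12-pMirn0 cells. Of those ranked below, *Car8* had ratios of -0.86 in C2C12-pMirn378 cells, against 2.35 in C2C12-pMirn0 cells. *Crabp2*, which carries retinoic acid, was in C2C12-pMirn378 cells at 660.5, 896 and 549 on the BMP2 arrays, against 3762, 3718 and 3200.2 on the untreated arrays, and its ratio was -2.37 in C2C12-pMirn378 cells, against -0.22 in C2C12-pMirn0 cells. *Dscc1*, a factor of sister chromatid cohesion, fell in C2C12-pMirn378 cells (-1.17) and rose in C2C12-pMirn0 cells (1.46).

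**Figure D5:**
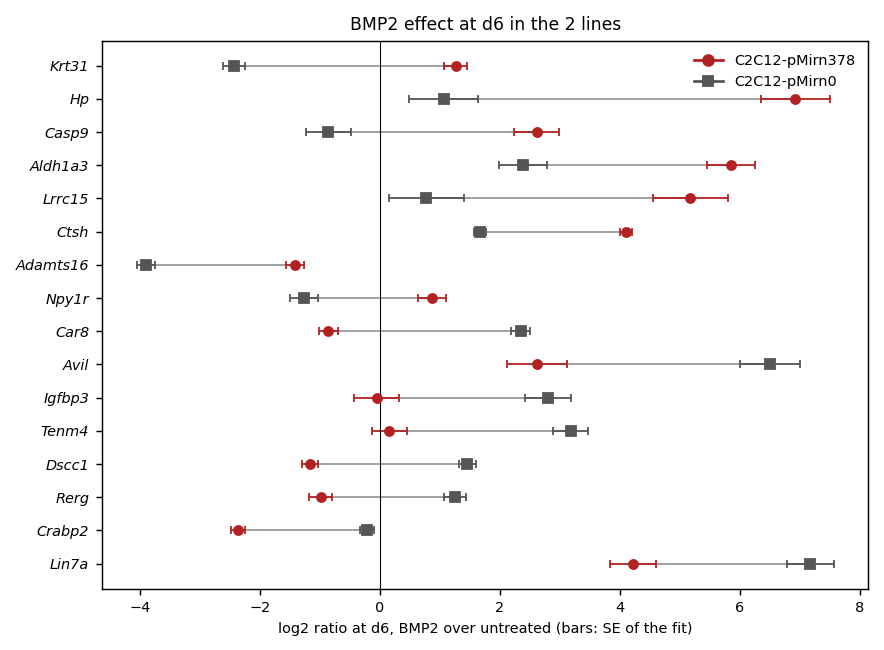
Log2 ratio of BMP2 over untreated cells at d6 (horizontal axis) in C2C12-pMirn378 cells (red circles) and C2C12-pMirn0 cells (grey squares) for the 16 genes ranked by the difference between the lines, with bars of 1 SE from the fit. The upper 8 genes have the higher ratio in C2C12-pMirn378 cells and the lower 8 in C2C12-pMirn0 cells. *Casp9*, *Aldh1a3*, *Lrrc15*, *Igfbp3*, *Tenm4* and *Lin7a* are read from a probe set other than their representative one.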

How the data were processed

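Labelled RNA of C2C12-pMirn378 and C2C12-pMirn0 cells at d0, d3 and d6 was hybridised to 30 Mouse Genome 430 2.0 arrays, on which several short probes report each gene as a probe set. The values deposited by the authors are intensities on a linear scale, 1 per probe set and array. Their methods name the Robust Multiarray Average (RMA) algorithm with quantile normalization in R 2.4.1, whereas the values have a 2% trimmed mean of 500 on every array and array medians of 68.0 to 82.7, so they are scaled per array and do not share 1 distribution. An array has no read depth, and the number of arrays limits the precision.

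The log2 values of all 30 arrays were fitted as 10 group means with limma 3.58.1 in R 4.3.3 (lmFit and eBayes), and p-values were adjusted by Benjamini-Hochberg over 45101 probe sets within each contrast. A probe set was called at an adjusted p under 0.005 with a log2 ratio beyond 0.6, the thresholds of the study's methods. The script was tested on simulated data. A gene in a list was read from its probe set with the highest mean log2 value. Besides the list members, the named genes are the 12 at each end of the ranking of the BMP2 effect and the 8 at each end of each difference of that effect, ranked with values under 50 set to 50. Other genes named were chosen after their values were seen. The members and lists were chosen with earlier results of these data known.

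The replicate numbers were checked. BMP2 and untreated arrays of the same number deviated together at d6 in C2C12-pMirn378 cells (r = 0.163, 0.153 and 0.188 across probe sets, against -0.0603 at most for other numbers). They were therefore taken as pairs, but only in the alternative fits with a block. The main fit does not use the replicate number. Deviations from a group mean cancel within the group, so the negative values for other numbers are tied to the positive ones and are no separate support. The labels do not say what a number marks. Between other groups of the comparisons not every pair passed 0.1. Alternatives were the replicate number as a block, leaving out dim probe sets, fitting only the arrays compared, trend and robust estimation, array weights, quantile normalization, a common median, low values raised to 50 or offset by 16, and leaving out each array. The replicate block within the 6 arrays, alone or in the fit of all 30, was added after seeing the data. Probe sets with several symbols (932) or none (9211) were tested but not named.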

Additional observations from a re-analysis of the deposited data

Results flagged for a closer look

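The BMP2 effect of the genes below, given as a difference of log2 ratios, differed between the lines or the days by a test of the difference itself (limma, Benjamini-Hochberg over all probe sets). They are the 8 at each end of each ranking, so their sizes describe the ends of the distribution, and no explanation was tested. The values of *Casp9*, *Aldh1a3*, *Lrrc15*, *Igfbp3*, *Tenm4*, *Lin7a*, *Tspan8* and *Cdca8* come from a probe set other than the representative one of the gene. They describe that probe set, and the value of the representative one is not given here.

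Between the lines at d6 (C2C12-pMirn378 minus C2C12-pMirn0), the response was above for *Hp* (5.87), *Lrrc15* (4.41), *Krt31* (3.70), *Casp9* (3.48), *Aldh1a3* (3.46), *Adamts16* (2.48), *Ctsh* (2.45) and *Npy1r* (2.14). It was below for *Avil* (-3.89), *Car8* (-3.20), *Tenm4* (-3.02), *Lin7a* (-2.96), *Igfbp3* (-2.86), *Dscc1* (-2.63), *Rerg* (-2.24) and *Crabp2* (-2.15). Dim values enter several of these. *Hp* was at 466 with BMP2 and 3.78 without it in C2C12-pMirn378 cells and at 10.7 with BMP2 and 6.09 without it in C2C12-pMirn0 cells, and its difference is 3.20 with values under 50 set to 50. *Lin7a* was at 41.9 with BMP2 in C2C12-pMirn378 cells and at 220.3 with BMP2 in C2C12-pMirn0 cells, and its call and that of *Igfbp3* were also lost under quantile normalization and under a common median. The *Casp9* value rests on an uneven untreated group in C2C12-pMirn0 cells (118 ± 81.5, SD, n = 3). Of the 12 arrays of this comparison, leaving out any of 10 lost the call of *Lrrc15* (highest adjusted p = 0.0167), any of 9 that of *Igfbp3* (0.00942), any of 8 that of *Lin7a* (0.00856) and any of 7 that of *Avil* (0.00748).

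Between the days in C2C12-pMirn378 cells (d6 minus d3), the response was above for *Car6* (4.54), *Gsta2* (3.80), *Trib3* (3.56), *Scara5* (3.46), *Diras2* (3.45), *Atf3* (3.03), *Cth* (2.70) and *Cdsn* (2.69). It was below for *Cilp* (-4.29), *Tspan8* (-4.16), *Gas2l3* (-3.85), *Cdca8* (-3.85), *Cdca5* (-3.80), *Depdc1a* (-3.72), *Postn* (-3.69) and *Birc5* (-3.59). Some of these changed sign between the days. *Gsta2*, for a glutathione transferase, had a log2 ratio of 1.62 at d6, against -2.18 at d3, and *Adamts16*, ranked between the lines, had -1.42 at d6, against 1.99 at d3. The call of *Scara5* was lost without d6 untreated replicate 1 or d3 untreated replicate 1 or 2 (highest adjusted p = 0.00669).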

How the results depend on the processing

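The counts of calls were 3423 higher and 3501 lower with BMP2, 250 above and 288 below between the lines, and 1057 above and 1517 below between the days. With only the arrays of each comparison in the fit they were 1750 and 1923, 41 and 48, and 486 and 801, since fewer arrays estimate the spread. With the replicate number as a block in the fit of all arrays they were 3431 and 3485, 245 and 281, and 1074 and 1537, and with the block on the 6 arrays alone 0 and 0. The block on these 6 arrays within the fit of all 30, which gave 3403 and 3504, lost 1 of 267 calls of listed or ranked genes, that of *Ccl2* (adjusted p = 0.00609). With values under 50 set to 50 the lines gave 442 above (and 414 below), and with a common median 111 below; the cause was not tested. The other alternatives kept each count within 1.5 times. Leaving out 1 array gave 3197 to 3335 higher and 3225 to 3349 lower with BMP2, 190 to 255 above and 213 to 274 below between the lines, and 924 to 1048 above and 1339 to 1459 below between the days. Under it 34 sarcomere genes and 11 BMP targets were called in each of 6 fits, cell cycle genes called lower numbered 17 to 20 with BMP2 and 27 to 29 between the days, and 11 to 14 sarcomere genes were below between the lines. Of 267 called listed or ranked genes 17 lost the BMP2 call without at least 1 array, of 67 for the lines 18 did, and of 149 for the days 18 did. A common median lost 7 of the 267, 24 of the 67 and 18 of the 149. Among ranked genes in their own comparison and list members for the BMP2 effect, no direction of a called gene was reversed under any alternative. Other calls were not checked for a reversal. Of the values on the 6 arrays 41.5% were under 50, where replicates scatter widely, so small changes of dim genes were not detectable here.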

Other observations

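For 37 of the 9012 genes with several probe sets, different probe sets were called in opposite directions by BMP2 in C2C12-pMirn378 cells at d6. A single value does not describe these 37 genes. They were chosen after their values were seen, and which transcripts each probe set reads was not tested. *Fxr1*, for an RNA-binding protein of muscle, was at 1519, 1692 and 1706 on the BMP2 arrays, against 4420.1, 4569 and 4564 on the untreated arrays by 1 probe set (log2 ratio -1.46, SE 0.06, limma adjusted p = 1.31e-14). By another it was at 309, 365 and 357 on the BMP2 arrays, against 165, 169 and 145 on the untreated arrays (log2 ratio 1.10, SE 0.13, adjusted p = 2.17e-07). The groups overlap in neither, and the brighter signal is the one that fell.

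*Pdlim5*, for a scaffold protein of the Z-disc that also occurs outside muscle, was at 1905, 1887 and 2123 on the BMP2 arrays, against 7510.5, 8283 and 7794 on the untreated arrays by its brightest probe set (3.99-fold lower, adjusted p = 2.57e-15). Another was at 3434, 3279.9 and 3054 on the BMP2 arrays, against 1245, 1394 and 1163 on the untreated arrays (2.57-fold higher, adjusted p = 4.48e-13). *Pdlim7*, its relative, likewise had probe sets with log2 ratios of -1.00 and 0.81. Both genes are thus lower or higher with BMP2 depending on the probe set.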
